A study of Mus musculus with 16 samples.

Results

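The CTLH complex is a multi-subunit RING-type ubiquitin ligase, and the genes described here are 8 of its subunits (*Maea*, *Rmnd5a*, *Ranbp9*, *Ranbp10*, *Wdr26*, *Gid4*, *Gid8* and *Armc8*) with *Ube2h*, the E2 ubiquitin-conjugating enzyme that works with it, and *Ube2o*, a large E2 enzyme of late erythroid cells. They were chosen by gene symbol, with earlier results of these data known, and are 10 of the 55416 genes in the count table. All 10 passed the filter on low counts (a mean normalized count above 10) in every comparison. Their lowest raw count in any of the 16 libraries was 161, for *Ube2o*, and their highest was 22062, for *Ranbp10*. RNA-seq was performed on erythroblasts of stages S1 and S3, which were sorted by Ter119 and CD71 from E13.5 foetal livers, named for the embryonic day. S1 cells are the earlier and S3 cells, which are basophilic erythroblasts, the later of both populations. The livers came from 4 wild-type (WT) embryos, numbered 0, 1, 5 and 8, from 2 heterozygous (Het) embryos, 3 and 4, and from 2 homozygous *Nprl3*-/- (KO) embryos, 2 and 9, and each liver gave 1 S1 and 1 S3 library. The labels name no treatment. In the KO the promoter of *Nprl3* is deleted in the germline and so in all cells, while the α-globin enhancers within the gene are left in place. *Nprl3* encodes a subunit of GATOR1, a brake on the nutrient-sensing kinase complex mTORC1. The line was bred onto a C57BL/6 J background. WT embryos 0 and 8, both Het embryos and KO embryo 9 were male, and WT embryos 1 and 5 and KO embryo 2 were female. The RNA was amplified before poly(A) library preparation. The tissue field of the sample labels names an embryonic stem cell line instead of foetal liver, and all 8 erythroid markers examined (such as *Alas2* and *Slc4a1*) were detected in every library.

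Terminal erythropoiesis ends with the loss of the nucleus and organelles and with a proteome that is nearly all haemoglobin, and ubiquitin ligases and E2 enzymes mark proteins for removal on that path. In the CTLH complex MAEA and RMND5A form the catalytic RING pair. RANBP9 or RANBP10, with GID8 and ARMC8, make up the scaffold, GID4 is a substrate receptor, and WDR26 and muskelin (*Mkln1*) join core complexes into larger assemblies or bring in substrates. MAEA was first known as the erythroblast macrophage protein, and UBE2O is known for the clearance of ribosomal proteins from reticulocytes.

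The libraries held 23331156 to 36035368 counts at S1 and 20666044 to 37609502 at S3. *Nprl3* had 839.7, 691, 735 and 996 normalized counts (TMM-scaled over the 16 libraries) in WT embryos 0, 1, 5 and 8 at S1, 386 and 396 in the Het embryos and 9.74 and 20.6 in the KO embryos. At S3 the KO libraries still held 3256 and 3377 normalized counts of *Nprl3*, against 4446 to 6215 in WT, so the S3 count does not check the KO label. The paper describes transcripts from the enhancers that are spliced and polyadenylated, code for no protein and confound *Nprl3* measurement. Its promoter-specific PCR assay detected no *Nprl3* mRNA in KO cells. The share of such transcripts in these counts was not tested here. Genes of immature progenitors (*Kit*, *Gata2* and *Myb*) summed to 4569 to 6747 normalized counts at S1 and to 46.3 to 103 at S3, while 8 erythroid markers summed to 43635 to 80257 at S1 and to between 790603 and 1210670 at S3. The S1 libraries also held transcripts of neutrophil precursors. *Mpo*, which encodes myeloperoxidase, had 2887 to 38602 normalized counts at S1, where it had 9.36 to 126 at S3, and the sum of 7 neutrophil genes ran from 3479 to 47677 at S1. In such bulk samples fewer cells of a type and less RNA per cell cannot be told apart. The S1 libraries of WT embryos 8 and 0 stood apart: *Mpo* was at 2887 and 4192 there against 23376 to 38602 in the other 6 S1 libraries, and *Slc4a1*, the band 3 anion exchanger of the red cell membrane, was at 11310.3 and 4271 against 142 to 1257. Hepatoblast transcripts were also most abundant there, with *Afp* at 4632 and 4527 against 168 to 2369. Macrophage genes (10 listed) summed to 305 to 1016 normalized counts at S1 and 464 to 2231 at S3, and megakaryocyte genes (5 listed) to 412 to 1978 and 1236 to 3000.4, with at most 1 gene of either list at 0 in any library. The male WT embryos are these same 2 embryos, so within WT the sex of the embryo and this difference between S1 libraries cannot be told apart. For each comparison with WT libraries, the count of members called in the planned edgeR test is given with and without these 2 embryos.

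The genes lie on 8 chromosomes of the mouse build mm39. The RING subunits are *Maea* (ENSMUSG00000079562.8, chr5:33492853-33530640) and *Rmnd5a* (ENSMUSG00000002222.15, chr6:71365618-71417621). The scaffold subunits are *Ranbp9* (ENSMUSG00000038546.10, chr13:43556151-43634758), *Ranbp10* (ENSMUSG00000037415.8, chr8:106494940-106553982), *Gid8* (ENSMUSG00000027573.12, chr2:180351910-180360526) and *Armc8* (ENSMUSG00000032468.12, chr9:99360425-99450952). *Wdr26* (ENSMUSG00000038733.15) lies at chr1:181000793-181039566 and *Gid4* (ENSMUSG00000018415.15) at chr11:60307971-60341753. The E2 enzymes are *Ube2h* (ENSMUSG00000039159.17, chr6:30211288-30304538) and *Ube2o* (ENSMUSG00000020802.9, chr11:116428566-116472273). The counting ignored strand and left out reads that overlapped exons of several genes. *Ranbp9* shares 453 exon bases (8.83% of its exon length) with *Nol7* on the other strand, so its counts leave out reads from there, and the exons of the other 9 genes overlap no other gene in the table.

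Promoter sequences from RefSeq were at hand for *Wdr26*, *Gid8*, *Ube2h*, *Rmnd5a*, *Armc8*, *Gid4* and *Ranbp9*. They had 10 annotated starts on the chromosomes of these genes, since *Gid8* has 3 and *Ube2h* has 2. Each was found once by exact match on its own chromosome of GRCm39, in the orientation of the gene. The rest of the genome was not searched. The 4 sequences of members that were higher at S3 and that of *Armc8*, which was not called, are printed so that the promoters of both kinds can be read beside the counts. They are the 250 bases before the start, written 5′ to 3′ on the strand of the gene, and capitals mark matches on either strand to AGATAA (a site of GATA factors), CCNCNCCC (the CACCC box of KLF factors) and CACGTG (an E-box), some of which overlap each other. A match that runs on past the start, as at *Gid8* and *Armc8*, shows only its part within the 250 bases.
Ube2h at chr6:30304539-30304788, minus strand: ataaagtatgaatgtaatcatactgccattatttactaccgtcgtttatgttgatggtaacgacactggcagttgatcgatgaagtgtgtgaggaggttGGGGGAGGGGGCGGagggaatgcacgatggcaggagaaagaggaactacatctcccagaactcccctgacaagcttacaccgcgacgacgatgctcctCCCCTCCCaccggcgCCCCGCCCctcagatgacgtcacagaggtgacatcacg
Wdr26 at chr1:181039544-181039793, minus strand: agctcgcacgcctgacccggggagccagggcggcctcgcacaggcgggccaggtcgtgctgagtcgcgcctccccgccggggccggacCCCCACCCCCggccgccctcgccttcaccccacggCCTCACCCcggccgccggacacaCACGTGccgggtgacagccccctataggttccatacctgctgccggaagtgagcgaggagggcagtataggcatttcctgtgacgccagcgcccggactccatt
Rmnd5a at chr6:71417622-71417871, minus strand: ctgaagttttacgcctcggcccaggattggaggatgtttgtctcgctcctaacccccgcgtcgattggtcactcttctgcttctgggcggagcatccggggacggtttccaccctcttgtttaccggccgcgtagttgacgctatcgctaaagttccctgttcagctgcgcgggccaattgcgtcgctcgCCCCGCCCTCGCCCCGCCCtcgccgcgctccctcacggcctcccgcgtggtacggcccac
Gid8 at chr2:180351769-180352018, plus strand: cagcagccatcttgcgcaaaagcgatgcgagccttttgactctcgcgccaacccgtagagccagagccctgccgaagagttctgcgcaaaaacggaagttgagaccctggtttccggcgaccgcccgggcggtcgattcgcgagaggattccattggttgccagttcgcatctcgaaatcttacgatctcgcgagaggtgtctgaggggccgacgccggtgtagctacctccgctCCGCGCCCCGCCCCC
Armc8 at chr9:99450953-99451202, minus strand: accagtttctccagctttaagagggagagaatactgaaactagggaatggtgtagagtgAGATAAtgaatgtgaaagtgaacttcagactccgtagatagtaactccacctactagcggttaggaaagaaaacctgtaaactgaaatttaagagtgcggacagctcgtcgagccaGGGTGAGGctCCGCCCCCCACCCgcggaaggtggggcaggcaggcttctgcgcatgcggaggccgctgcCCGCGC

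In windows that also take in the 50 bases after the start, CCNCNCCC matched in 10 of the 10 starts of these 7 genes, a motif that 49.5% of the 32851 mouse promoters of the same length hold. The windows of the first and second start of *Gid8* overlap and share matches, so the 10 are not separate promoters. AGATAA matched in 3 of 10, at *Armc8*, at the third start of *Gid8* and at the second start of *Ube2h*, and in 11.2% of all promoters. CACGTG matched in 2 of 10, upstream of *Wdr26* and after the start of *Gid4*, and in 7.15% of all promoters. The GC content of the windows was 56% at the *Ube2h* start shown, 71.3% at *Wdr26*, 66.7% at *Rmnd5a*, 65% at the *Gid8* start shown and 54.3% at *Armc8*, against a median of 52.7% over all promoters. It was 43.7% at the third start of *Gid8* and 43.7% at the second start of *Ube2h*, where AGATAA matched. A match is a run of letters, and binding was not measured here.

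The first comparison asked how the transcripts of the complex and of both E2 enzymes differ between S1 and S3 in WT. *Ube2h*, *Ube2o*, *Ranbp10*, *Wdr26*, *Gid8* and *Rmnd5a* were higher at S3, and no member was lower. That is 6 of 10 members called higher by edgeR's quasi-likelihood test (adjusted p under 0.05), where 30.6% of the 13514 genes tested were called higher and 35% were called lower. The median log2 fold change was 2.59 over the 10 members and -0.08 over all genes tested. Since the members were chosen with earlier results of these data known, this contrast is a description. The remaining 4, *Maea*, *Ranbp9*, *Gid4* and *Armc8*, had log2 fold changes from -0.28 to 0.30 and did not pass the test. Without embryos 0 and 8 the same 6 members were called higher and none lower. Summed neutrophil and progenitor counts were lower and erythroid counts higher at S3 in the same libraries. The sum of the 6 hepatoblast genes was 1263 to 8114 in WT at S1 and 4398 to 20975 at S3. That of the 10 macrophage genes was 384 to 1016 and 930.2 to 2231. That of the 5 megakaryocyte genes was 773 to 1631 and 1236 to 2543. Each of these sums was higher at S3 in all 4 embryos. Their part in the stage differences was not tested.

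*Ube2h* had 552, 279, 401 and 1040.0 normalized counts in WT embryos 0, 1, 5 and 8 at S1 and 19196, 14608, 14751 and 27866 at S3. The stages did not overlap, and embryo 8 was highest at both. The rise was 35.3-fold (log2 fold change 5.14, standard error (SE) 0.46, with an adjusted p of 5.92e-06 in edgeR). *Ube2o* had 318, 201, 199 and 858 normalized counts at S1 and 12788, 6911, 8683 and 16773 at S3, again with embryo 8 highest at each stage. Its log2 fold change was 4.91 (SE 0.57, with an adjusted p of 3.17e-05 in edgeR), and 5.34 without embryos 0 and 8.

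Among the scaffold subunits *Ranbp10* differed most between stages. It had 1119.9, 689, 683 and 1908 normalized counts at S1 and 28462, 17577, 22043 and 34823 at S3, with embryos 0 and 8 above embryos 1 and 5 at both stages. The difference was 24.5-fold (log2 fold change 4.62, SE 0.41, with an adjusted p of 5.72e-06 in edgeR). Its paralogue *Ranbp9* had 839.7, 604, 871 and 1486 normalized counts at S1 and 1183, 897, 1048 and 1334 at S3, and the stages overlapped. The difference for *Ranbp9* was 0.30 on the log2 scale (95% confidence interval -0.30 to 0.90, edgeR adjusted p = 0.355), and it was 0.53 and called (adjusted p = 0.0423) when embryo 8 was left out. *Gid8*, which holds the scaffold together, was the least variable of the members that were higher, at 2883, 2348, 2437 and 2644 normalized counts at S1 and 19178, 22672, 21838 and 20380.0 at S3 (log2 fold change 3.09, SE 0.14, with an adjusted p of 2.16e-07 in edgeR). *Armc8* had 1425 to 1557 normalized counts at S1 and 1599 to 1747 at S3, with no overlap. Its log2 fold change of 0.23 (95% confidence interval -0.04 to 0.50) had an adjusted p of 0.115 in edgeR and passed the threshold in DESeq2, where it was 0.0429.

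The subunits of the RING pair differed in how they changed between stages. *Maea* had 2761, 2419, 2831 and 2790.1 normalized counts at S1 and 2336, 2481, 2363 and 2439 at S3. These values span a narrow range, and its log2 fold change was -0.10 (95% confidence interval -0.37 to 0.16, edgeR adjusted p = 0.464). *Rmnd5a*, its partner, had 377, 360.4, 274 and 530.0 normalized counts at S1 and 2023, 1100.1, 1193 and 1985 at S3, where embryos 0 and 8 were clearly above embryos 1 and 5. It rose 4.29-fold (log2 fold change 2.10, SE 0.29, with an adjusted p of 0.000102 in edgeR).

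*Wdr26* had 1067, 1019, 652 and 1081 normalized counts at S1 and 12096, 9983, 9022 and 14098 at S3, so that every S3 library was well above every S1 library. The log2 fold change of *Wdr26* was 3.63 (SE 0.24, with an adjusted p of 8.9e-07 in edgeR). *Gid4*, the receptor for substrates with an N-terminal proline degron, had 1086, 752, 1089.7 and 1760.1 normalized counts at S1 and 1039, 856, 918 and 884 at S3, and the stages overlapped. For *Gid4* the log2 fold change was -0.28 (95% confidence interval -0.81 to 0.25, edgeR adjusted p = 0.322). The S1 value of embryo 8 was the highest of the 16 libraries.

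**Figure D1:**
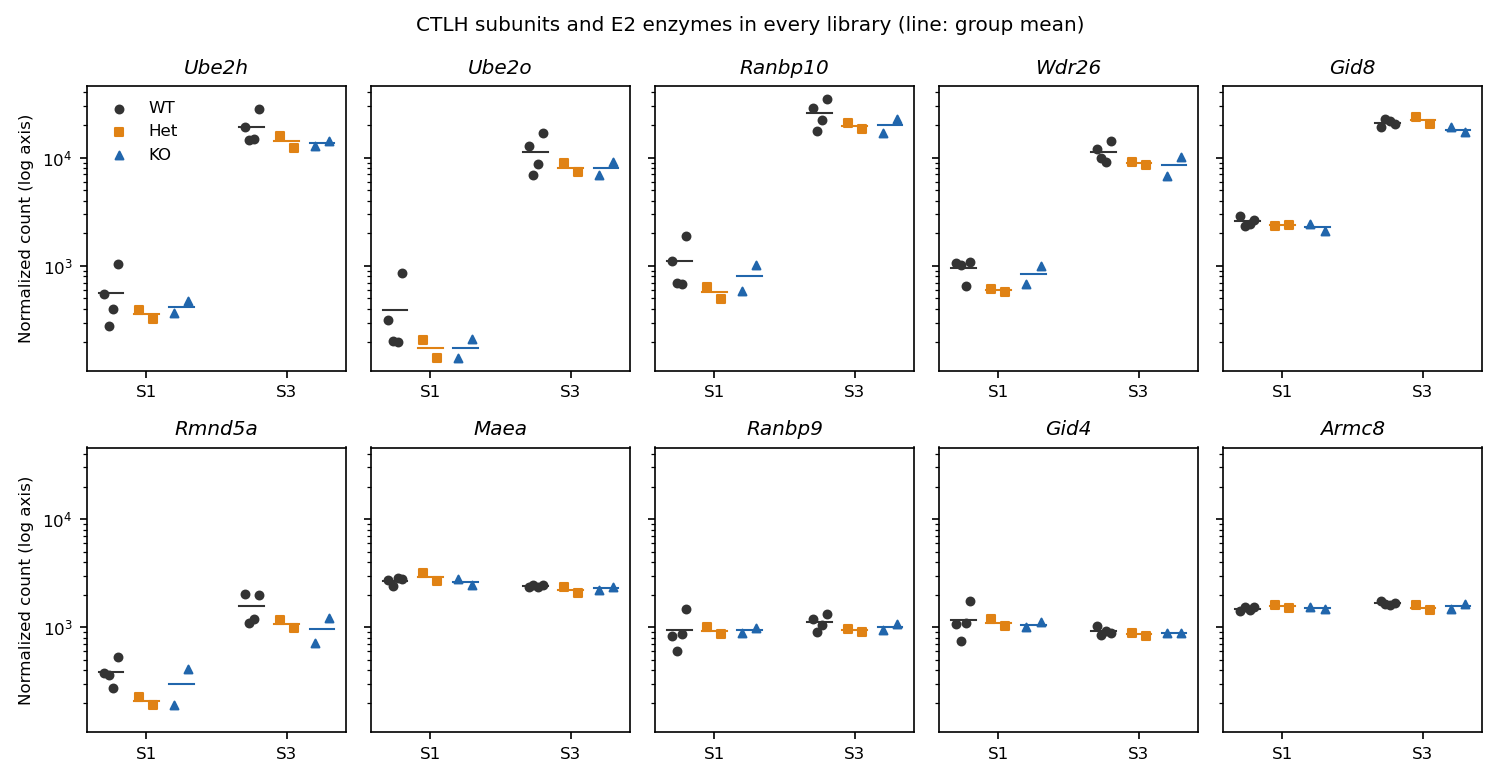
Normalized counts (log axis) of the 10 genes in each of the 16 libraries at S1 and S3, with circles for WT (n = 4 a stage), squares for Het (n = 2), triangles for KO (n = 2) and a line at each group mean. The upper row and *Rmnd5a* stand higher at S3 than at S1 in every genotype, while *Maea*, *Ranbp9*, *Gid4* and *Armc8* stay within 604 to 3157 in all libraries.

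The values above are relative to the other genes of a library. Globin genes held 0.0738% to 1.07% of the counts at S1 and 10.0% to 11.8% at S3, and when counts were scaled to the library total alone, a setting added after the data were seen, the median log2 fold change of all 13514 genes moved from -0.08 to -1.10. Over all genes 1869 were then called higher and 8530 lower, in place of 4142 and 4728. On that scale all 10 members were called in WT, the same 6 higher and the other 4 lower, with *Ube2h* at 4.07, *Rmnd5a* at 1.06, *Maea* at -1.13 and *Gid4* at -1.32 (log2 fold changes). *Armc8* and *Ranbp9* changed sign, to -0.79 and -0.75. Relative to the median of all genes on that scale, these 4 members lay between -0.22 and 0.35. In KO that scale gave 1572 genes higher and 7120 lower in place of 3317 and 3814, and in Het 2333 and 8360 in place of 4755 and 5181. In KO *Rmnd5a* was not called on it (log2 fold change 0.87, edgeR adjusted p = 0.165).

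The same 6 members were higher at S3 in both other genotypes. In KO (2 livers) 6 of 10 were called higher and none lower, where 24.7% of 13446 genes tested were called higher and 28.4% lower. In Het (2 livers) 6 were called higher and 1, *Maea*, lower, where 36.3% of 13085 genes were called higher and 39.6% lower. The sum of the 7 neutrophil genes was 46502 and 47677 normalized counts at S1 and 45.2 and 340 at S3 in KO. In Het it was 45441 and 45109 at S1 and 74.6 and 34.4 at S3. Hepatoblast and megakaryocyte sums were higher at S3 in every KO and Het embryo. So were macrophage sums, except in KO embryo 9. The part of these transcripts in the stage differences was not tested. *Ube2h* went from 369 and 472 normalized counts at S1 to 12889 and 14365 at S3 in KO embryos 2 and 9, and from 395 and 320.1 to 15937 and 12279 in Het embryos 3 and 4. The log2 fold change was 5.10 in KO (95% confidence interval 4.54 to 5.67) and 5.42 in Het (5.09 to 5.75), and both intervals hold the WT value of 5.14. *Ube2o* went from 142 and 209.6 to 6869 and 9199 in KO and from 205 and 141 to 8866 and 7325 in Het. Its log2 fold changes were 5.60 and 5.65, beside 4.91 in WT. *Ranbp10* had log2 fold changes of 4.73 in KO and 5.22 in Het, *Wdr26* of 3.42 and 4.01, *Gid8* of 3.09 and 3.33, and *Rmnd5a* of 1.79 and 2.48. *Maea* in Het went from 3157 and 2671 to 2367 and 2090.3 (log2 fold change -0.27, edgeR adjusted p = 0.0468), a call that was lost in DESeq2 (adjusted p = 0.0901), in the newer quasi-likelihood method, with filterByExpr, with all 16 libraries in the fit and when either Het embryo was left out.

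**Figure D2:**
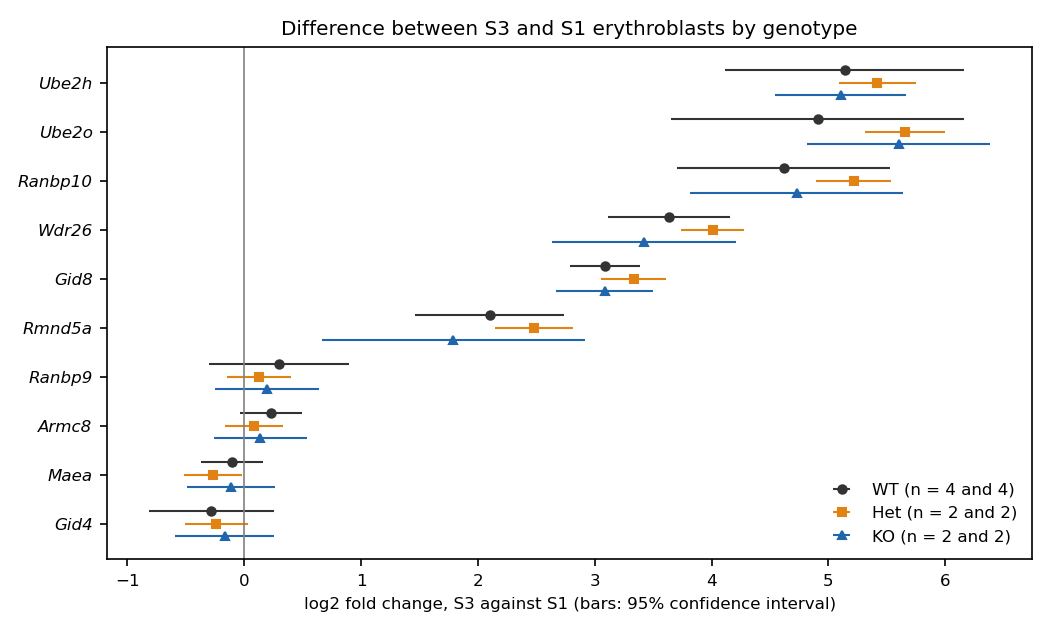
Log2 fold change between S3 and S1 (horizontal axis) for each gene in WT, Het and KO, with 95% confidence intervals from edgeR as bars. The intervals of the upper 6 genes lie above 0 in every genotype, the lowest bound being 0.66 for *Rmnd5a* in KO, and those of the lower 4 hold 0 except *Maea* in Het.

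The interaction of genotype and stage tests whether the stage difference itself differs from WT. No member passed in KO or in Het. In KO 1 of 13485 genes (0.00742%), *Nprl3* itself, was called by edgeR, 420 had an unadjusted p under 0.05 and DESeq2 called 12. In Het edgeR called 0 of 13364 genes (0%), 374 had an unadjusted p under 0.05 and DESeq2 called 0. *Ube2o* had the largest value of the 10 members in both, 0.75 in KO (95% confidence interval -1.01 to 2.52) and 0.75 in Het (-0.93 to 2.42). These intervals are wide, and without WT embryos 0 and 8 the values were 0.26 and 0.33 and no member was called. Both interactions share the WT libraries.

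Ratios of 2 genes within 1 library do not depend on the scaling between libraries, and 6 such measures were tested between S3 and S1 in WT with an exact two-sided permutation test over libraries (4 against 4), for which the smallest possible p is 0.0286. Counts per kilobase of *Ranbp10* over those of *Ranbp9* were 1.08, 0.928, 0.638 and 1.04 in embryos 0, 1, 5 and 8 at S1 and 19.6, 15.9, 17.1 and 21.2 at S3. The paralogues were thus near parity at S1, and *Ranbp10* was far above *Ranbp9* at S3. The log2 ratio rose by 4.34 (exact permutation p = 0.0286, adjusted over the 6 measures 0.0343). This test sets aside that both stages come from the same 4 embryos. Paired by embryo, an exact sign-flip test over 4 pairs cannot pass the threshold, and each measure that passed unpaired then lost its call, with p at the smallest possible value of 1 in 8. The ratio of *Rmnd5a* to its paralogue *Rmnd5b*, the alternative RING subunit, rose on the log2 scale from -4.02 ± 0.44 to -1.14 ± 0.72 (SD, n = 4 each, exact permutation p = 0.0286, adjusted 0.0343). *Rmnd5b* still had the higher count per kilobase in all 4 WT libraries at S3, with the linear ratio at 0.6, 0.279, 0.32 and 0.791.

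Within the RING pair, *Maea* stood 18.9, 17.3, 26.6 and 13.6 times above *Rmnd5a* per kilobase at S1 and 2.98, 5.82, 5.11 and 3.17 times at S3. The gap had narrowed in every embryo, with a change in the log2 ratio of -2.18 (exact permutation p = 0.0286, adjusted 0.0343). The log2 ratio of *Wdr26* to *Mkln1* rose from -0.07 ± 0.24 to 2.10 ± 0.25 (SD, n = 4 each, with the same p and adjusted p). The annotated exon length of *Mkln1* is 28943 bases, so the level of this ratio depends on the annotation and its change does not. The log2 ratio of *Ube2o* to *Ube2h* was -0.94, -0.62, -1.16 and -0.42 at S1 and -0.73, -1.23, -0.91 and -0.88 at S3. The stages overlapped, and the difference of -0.15 was within the spread between libraries (exact permutation p = 0.4). In KO and Het the first 4 of these ratios moved in the same direction as in WT, without overlap between stages. *Ube2o*/*Ube2h* moved the other way from WT, by 0.50 in KO and 0.27 in Het, also without overlap. For all of these 2 livers against 2 allow no p below 0.333.

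The last measure was the share of *Ube2h* and *Ube2o* in the summed TPM of 36 E2 genes. TPM, the share of a gene in a library after division by its length, was computed from the counts and the exon lengths in the table. The share was 0.566, 0.318, 0.401 and 1.53% in embryos 0, 1, 5 and 8 at S1 and 4.28, 2.47, 2.61 and 5.02% at S3 (exact permutation p = 0.0286, adjusted 0.0343). Both enzymes together thus remained a small part of all E2 transcripts. By WT mean TPM *Ube2h* stood in place 25 of the 36 at S1 (16.8 ± 12.5, SD, n = 4) and in place 6 at S3 (208 ± 71.7). *Ube2o* stood in place 30 at S1 (10.8 ± 10.3) and in place 10 at S3 (112 ± 46.8). These S1 means include embryo 8, which had 35.1 TPM of *Ube2h* and 26.1 of *Ube2o*. The other WT libraries had 7.25 to 14.7 and 4.65 to 7.66. *Ube2l6*, an enzyme of ISG15 conjugation, and *Ube2c*, the E2 of the anaphase-promoting complex, held the top places at S3 with mean TPM of 3979 and 2297.

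**Figure D3:**
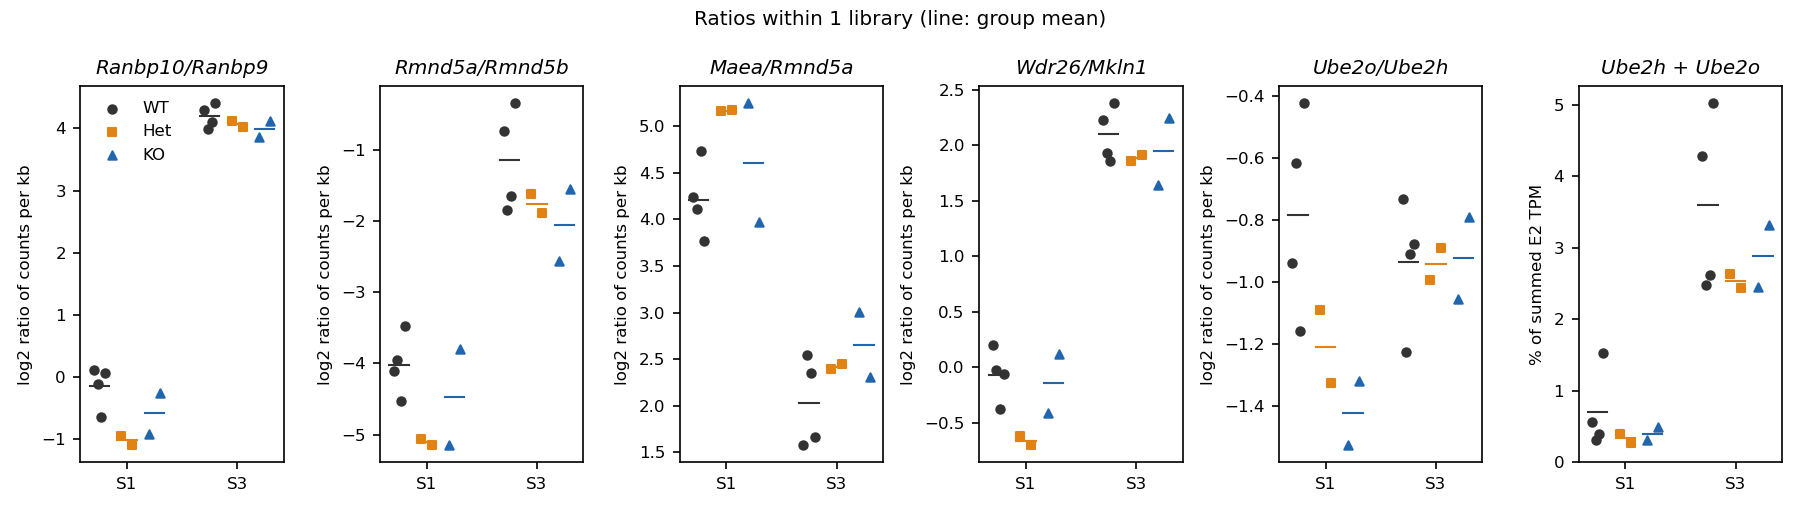
Log2 ratios of counts per kilobase within each library, and the percent of the summed E2 TPM held by *Ube2h* and *Ube2o*, at S1 and S3 with WT as circles, Het as squares, KO as triangles and lines at the group means. All but *Ube2o*/*Ube2h* separate the stages in WT, and the *Ranbp10*/*Ranbp9* log2 ratio goes from -0.14 to 4.20.

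Levels between the genes were compared in TPM. At S1 in WT *Gid8* (141 ± 25.4, SD, n = 4) and *Maea* (138 ± 23.7) were the most abundant and did not differ beyond their spread. They were followed by a gap, and then by *Gid4* (33.4 ± 17.1), *Armc8* (30.6 ± 4.8), *Ranbp9* (25.8 ± 14.2), *Ranbp10* (24.6 ± 16.7), *Ube2h* (16.8 ± 12.5), *Wdr26* (15.6 ± 4.63), *Ube2o* (10.8 ± 10.3) and *Rmnd5a* (7.82 ± 3.3). Among these 8 the libraries of each neighbour in the order overlapped, and WT embryo 8 had the highest TPM of each. At S3 *Gid8* was again first (440.4 ± 11.9) and apart from the next, *Ranbp10* (213 ± 69.7). *Ranbp10*, *Ube2h* (208 ± 71.7), *Ube2o* (112 ± 46.8) and *Wdr26* (71 ± 17.1) came next, and the libraries of each neighbour among these 4 overlapped. *Maea* (47.4 ± 2.82) lay below all 4 and above *Armc8* (13.3 ± 1.47), *Rmnd5a* (12.2 ± 4.57), *Ranbp9* (11.3 ± 2.37) and *Gid4* (9.89 ± 1.61), whose neighbours overlapped. In TPM, which shares 1 total among all genes, *Maea* was lower at S3 (44.3 to 51) than at S1 (114 to 171) in WT, and *Rmnd5a* overlapped between stages (5 to 12.6 at S1 and 7.98 to 17.1 at S3). With globin genes taken out of the total, *Maea* averaged 142 at S1 and 70.7 at S3.

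In Het and KO the leading pair at S1 was the same. *Maea* averaged 137 ± 22.4 TPM in Het and 132 ± 2.61 in KO (SD, n = 2 each), and *Gid8* 119 ± 3.5 and 121 ± 1.49. At S3 *Gid8* was first in both, at 449.6 ± 20.9 TPM in Het and 426 ± 3.75 in KO, and *Rmnd5a* was last, at 7.95 ± 0.396 and 8.43 ± 3.63. *Ube2h* went from 9.22 ± 1.79 TPM at S1 to 148 ± 17.8 at S3 in Het and from 11.7 ± 3.26 to 166 ± 23.1 in KO.

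The next comparison asked whether the loss of the *Nprl3* promoter changed these genes at S1. No member was called between KO and WT, where edgeR called 1 of 14039 genes (0.00712%), which was *Nprl3*, 355 genes had an unadjusted p under 0.05 and DESeq2 called 45, none of them a member. The log2 fold change was below 0 for 9 of the 10 members and for 51.1% of all genes tested. *Ube2o* was at 142 and 209.6 normalized counts in KO embryos 2 and 9, against 318, 201, 199 and 858 in WT embryos 0, 1, 5 and 8, and the groups overlapped. Its log2 fold change was -1.18 (95% confidence interval -2.74 to 0.38), and -0.16 (-0.87 to 0.54) without WT embryos 0 and 8. *Ube2h* was at 369 and 472 in KO (log2 fold change -0.44) and *Ranbp10* at 582 and 1017 (-0.46), and these values turned to 0.33 and 0.25 without those embryos, where again no member was called. The sum of the 7 neutrophil genes was 46502 and 47677 normalized counts in KO and 3479 to 39742 in WT, and its part in these values was not tested. *Rmnd5a* differed between the KO embryos themselves, at 191 and 409, as did *Wdr26*, at 678 and 1008. *Gid8* had a log2 fold change of -0.18, and the other 4 members lay between -0.15 and 0.02. In none of the 10 did both KO libraries lie below all 4 WT libraries, an order found in 3.75% of the genes tested.

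At S3 no member was called between KO and WT either, where edgeR called 66 of 11804 genes (0.559%), 54 of them higher, 1006 genes had an unadjusted p under 0.05 and DESeq2 called 259, none of them a member. All 10 log2 fold changes were below 0, as were 49.0% of those of all genes, and their median was -0.24 against 0.01. *Rmnd5a* was at 719 and 1232 normalized counts in KO embryos 2 and 9 and at 2023, 1100.1, 1193 and 1985 in WT, with KO embryo 9 inside the WT range. Its log2 fold change was -0.64 (95% confidence interval -1.41 to 0.14, edgeR adjusted p = 0.688). *Ube2h* was at 12889 and 14365 in KO and at 19196, 14608, 14751 and 27866 in WT, so both KO libraries lay below all WT libraries. The log2 fold change was -0.44 (-1.10 to 0.21). *Gid8* was at 19084 and 17242 in KO and 19178, 22672, 21838 and 20380.0 in WT, also without overlap, by a small margin (log2 fold change -0.15, -0.44 to 0.14). These 2 of 10 members compare with 12.1% of all genes tested that lay lower in KO without overlap. *Ube2o* had a log2 fold change of -0.44, *Wdr26* of -0.36 and *Ranbp10* of -0.32. *Maea*, *Ranbp9*, *Gid4* and *Armc8* lay between -0.08 and -0.00076.

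For several members the KO values at S3 rested on which WT embryos entered. WT embryos 0 and 8 had the highest *Ube2h*, *Ube2o*, *Ranbp10*, *Wdr26* and *Rmnd5a* of the 8 S3 libraries, and they also had the highest *Slc4a1*, at 263546 and 302597 normalized counts against 126837 to 204559 in the other 6. The sum of the 6 hepatoblast genes was also highest in both, at 20975 and 12781 against 1842 to 6279. Macrophage genes summed to 911 and 464 in KO embryos 2 and 9, below the 930.2 to 2231 of WT. The sum of the 8 erythroid markers was also below all WT libraries in KO, at 790603 and 876079 against 885102 to 1210670. The part of these transcripts in the KO values was not tested. Without WT embryos 0 and 8 the log2 fold change was -0.02 for *Ube2h* (-0.33 to 0.30), 0.14 for *Ube2o* (-0.33 to 0.61), 0.10 for *Ranbp10*, -0.07 for *Wdr26* and -0.14 for *Rmnd5a* (-0.75 to 0.48). *Gid8* did not move toward 0, at -0.20 (-0.50 to 0.09), and no member was called. With the sex of the embryo as a covariate *Rmnd5a* was called lower (-0.63, edgeR adjusted p = 0.004), as 1 of 547 genes called in that fit.

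In Het livers at S1 no member was called. There edgeR called 0 of 13818 genes (0%), 589 had an unadjusted p under 0.05, *Rmnd5a* and *Wdr26* among them, and DESeq2 called 30, none of them a member. The log2 fold change was below 0 for 8 of 10 members and for 49.7% of all genes. *Rmnd5a* was at 228 and 190.3 normalized counts in Het embryos 3 and 4 against 274 to 530.0 in WT (log2 fold change -0.89, 95% confidence interval -1.61 to -0.17). *Wdr26* was at 618 and 576 against 652 to 1081 (-0.68, -1.28 to -0.09), and *Ranbp10* at 643 and 495 against 683 to 1908 (-0.97, -2.06 to 0.12). These 3 members lay below all WT libraries, as did 9.3% of all genes tested. *Ube2o* was at 205 and 141 and overlapped WT (-1.21, -2.75 to 0.33). Without WT embryos 0 and 8 the log2 fold changes were -0.59 for *Rmnd5a* (-1.16 to -0.02), -0.47 for *Wdr26*, -0.26 for *Ranbp10* and -0.20 for *Ube2o*, and no member was called. The sum of the 7 neutrophil genes was 45109 and 45441 normalized counts in Het, above the 3479 to 39742 of WT. The sums of hepatoblast genes (849 and 477 against 1263 to 8114 in WT), macrophage genes (305 and 342 against 384 to 1016) and megakaryocyte genes (421 and 412 against 773 to 1631) lay below all WT libraries in Het. The part of these transcripts in the result was not tested.

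In Het livers at S3 again no member was called. There edgeR called 0 of 11746 genes (0%), 373 had an unadjusted p under 0.05 and DESeq2 called 1, not a member. The log2 fold change was below 0 for 9 of 10 members and for 53.2% of all genes. No member lay below all WT libraries, an order found in 12.5% of all genes. *Ube2h* was at 15937 and 12279 normalized counts in Het embryos 3 and 4 (log2 fold change -0.39, 95% confidence interval -1.03 to 0.24), *Ube2o* at 8866 and 7325 (-0.44, -1.19 to 0.31) and *Rmnd5a* at 1162 and 990.5 (-0.50, -1.14 to 0.14). Each of these Het values lay near WT embryos 1 and 5 and below WT embryos 0 and 8. The hepatoblast sum was 3064 and 4171 in Het, below the 4398 to 20975 of WT, and its part in these values was not tested. Without embryos 0 and 8 the 3 log2 fold changes were 0.03, 0.14 and -0.0049, and no member was among the 8 genes called. Both Het embryos were male, like WT embryos 0 and 8, so that a fit with sex sets them in effect against those 2 embryos. With sex as a covariate 5 members were called lower in Het at S3: *Rmnd5a* (-0.87), *Ube2o* (-0.85), *Ube2h* (-0.72), *Ranbp10* (-0.68) and *Wdr26* (-0.55). That fit called 2124 of the 11746 genes. The same covariate at S1 called *Ranbp10* lower in Het (-1.45, edgeR adjusted p = 0.0315), as 1 of 397 genes. The KO and Het comparisons share the WT libraries, so their values are not independent of each other.

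**Figure D4:**
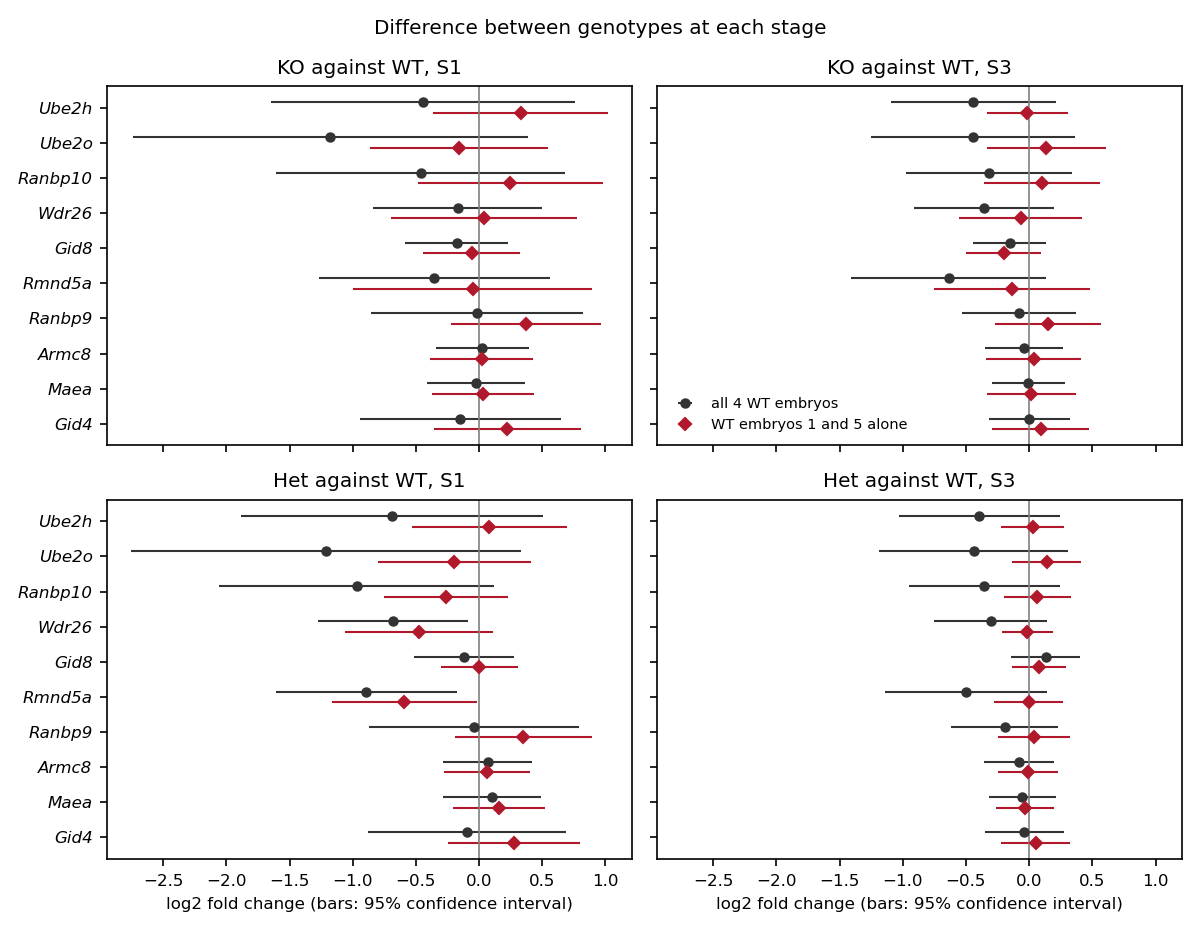
Log2 fold change of KO (upper panels) and Het (lower panels) against WT at S1 (left) and S3 (right), with 95% confidence intervals from edgeR, using all 4 WT embryos (circles) or WT embryos 1 and 5 alone (diamonds). With all WT embryos the values of *Ube2h*, *Ube2o*, *Ranbp10*, *Wdr26* and *Rmnd5a* lie below 0, down to -1.21 for *Ube2o* in Het at S1, and with embryos 1 and 5 alone their values in KO at S3 lie between -0.14 and 0.14.

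For the within-library ratios of KO or Het against WT, 4 against 2 libraries allow no exact permutation p below 0.0667. No measure came below 0.133. That value was found in KO for *Ube2o*/*Ube2h* at S1, where the log2 ratio was -1.53 and -1.32 in KO and -0.94, -0.62, -1.16 and -0.42 in WT. Both KO ratios lay below all WT ratios (difference -0.64, adjusted over the 6 measures p = 0.64 in the exact permutation test). In Het at S1 it was found for *Ranbp10*/*Ranbp9* (difference -0.88), *Rmnd5a*/*Rmnd5b* (-1.09), *Maea*/*Rmnd5a* (0.96) and *Wdr26*/*Mkln1* (-0.59), each without overlap with WT (adjusted p = 0.2 in the exact permutation test). At S3 the KO difference in *Ube2o*/*Ube2h* was 0.02.

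The other subunits of the complex moved with stage as well. *Ypel5*, a subunit that binds WDR26, went from 653, 357, 407 and 734 normalized counts at S1 to 33159.8, 33842, 31635 and 40064 at S3 in WT. The difference of 6.07 on the log2 scale (SE 0.30, with an adjusted p of 2.84e-07 in edgeR) was above that of every one of the 10 members. *Mkln1* went from 3244, 3617, 2953 and 3944 to 8991, 9133, 8669.9 and 9458 (1.46, adjusted p = 7.64e-06). *Rmnd5b* was lower at S3, at 2070.2, 1780.2, 2024 and 1869 and then 1075, 1256, 1189 and 799.7 (-0.78, adjusted p = 0.00101). All 3 were called in the same direction in KO and Het, though *Rmnd5b* in KO (-0.59, edgeR adjusted p = 0.0305) lost its call without KO embryo 2 (0.133) or 9 (0.0776). None was called between genotypes.

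Of the 34 other E2 enzymes listed, 31 were tested in the WT stage comparison, and 15 were higher at S3, 7 lower and 9 not called, beside the 30.6% and 35% of all genes. Their median log2 fold change was 0.41. In this ranking of 33 E2 enzymes *Ube2h* came in place 3 and *Ube2o* in place 4. The 3 largest rises among the other E2 enzymes were *Ube2v1* (5.88, standard error 0.34), *Ube2l6* (5.84, 0.30) and *Ube2c* (3.93, 0.20). *Ube2v1*, a catalytically inactive partner of UBE2N, shares 69.1% of its exon bases with other annotated genes and *Ube2c* 22.8%, so their counts are uncertain. The 3 largest falls were *Ube2d1* (-4.35, 0.35), *Ube2e1* (-3.10, 0.27) and *Ube2e2* (-2.49, 0.32), enzymes that work with many RING ligases. *Ube2e1* shares 16.1% of its exon bases with *Nkiras1*. In KO 11 of the 31 were higher and 6 lower, beside 24.7% and 28.4% of all genes (median 0.33), and in Het 16 and 7, beside 36.3% and 39.6% (0.30). None was called between genotypes.

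Of 6 genes that supply ubiquitin, 3 were called higher at S3 in WT, 1 lower and 2 not, beside 30.6% and 35% of all genes. In KO these counts were 3, 1 and 2, beside 24.7% and 28.4% of all genes. In Het they were 3, 2 and 1, beside 36.3% and 39.6%. The polyubiquitin gene *Ubb* (log2 fold change 2.14 in WT) and the main E1 enzyme *Uba1* (0.96) were higher at S3, *Uba6*, the other E1 enzyme, was lower (-1.59), and *Rps27a*, a ribosomal fusion gene, was not called (-0.14). Of 6 other ligase genes known in terminal erythroid cells 4 were higher in WT, *Trim10* (5.82), *Trim58* (3.97), *Fbxo7* (2.69) and *Cul4a* (1.25). *Cul4b* was lower (-0.79) and *Huwe1* was not called (-0.84). In KO 4 were higher and none lower, and in Het 4 and 1, beside the same shares of all genes as above. Of 4 genes whose proteins are reported substrates 3 were tested. *Hbp1*, a transcription factor that CTLH marks for degradation, was higher (2.84, with 24.6% of its exon bases shared with another gene), *Nmnat1*, a nuclear NAD-synthesising enzyme, was lower (-1.35) and *Hmgcs1*, a sterol synthesis enzyme, was not called (0.20). Protein levels were not measured. None of these genes was called between KO or Het and WT at either stage.

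The genes whose log2 CPM followed the members most closely over the 16 libraries were found by Pearson correlation among 13402 genes, as a description, since the libraries share stage and embryo. *Ube2h* was most like *Agfg1* (r = 0.999, and 0.981 after subtracting each stage mean), *Eif2ak1* (0.999 and 0.978), the haem-regulated kinase of eIF2α, and *Unc5cl* (0.999 and 0.955). *Ube2o* was most like *Tent5c* (0.998 and 0.964), *Rnf123* (0.998 and 0.960) and *Dennd2c* (0.998 and 0.954). *Wdr26* was most like *2810013P06Rik* (0.998 and 0.934), *Top2a* (0.997 and 0.929) and *Dleu2* (0.997 and 0.917). *Maea*, which varied little, was most like *Tsen54* (0.922 and 0.835), *Armc6* (0.911 and 0.849) and *Hnrnpll* (0.897 and 0.724).

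Within stages the members did not all vary together. After subtracting stage means the correlation over the 16 libraries was 0.954 between *Ranbp10* and *Ube2o*, 0.926 between *Ube2h* and *Ube2o*, 0.932 between *Rmnd5a* and *Wdr26* and 0.896 between *Ranbp9* and *Gid4*. WT embryos 0 and 8 had the highest *Ranbp10*, *Ube2h* and *Ube2o* at both stages. Correlations without those embryos were not computed, and how far the values rest on them was not tested. *Gid8*, although higher at S3 like *Ube2o*, *Ranbp10* and *Wdr26*, had 0.234 with *Ube2o*, 0.154 with *Ranbp10* and 0.100 with *Wdr26*. *Maea* and *Rmnd5a*, the RING pair, had -0.061.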

How the data were processed

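RNA-seq libraries of 16 sorted S1 and S3 erythroblast samples from 8 embryos were analysed. The authors aligned the reads with STAR 2.7.9 to mm39 and counted read pairs per gene with featureCounts 1.6.4 on an Ensembl annotation, without strand and without reads that mapped to several places or genes. The deposited values are raw counts with no normalization. The table also held 4 library columns that match no sample label and were not used.

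From these counts, genes with a mean normalized count above 10 in the libraries compared were tested with edgeR 4.0.16 (R 4.3.3; TMM factors, quasi-likelihood F-test, Benjamini-Hochberg adjustment over all genes tested, threshold 0.05), and 54749 of 55416 gene IDs were matched to symbols in GENCODE M39. DESeq2 1.42.0, the tool of the authors' own analysis, other scalings, filters and fits, sex as a covariate and leaving out embryos were alternatives. The main edgeR fits were tested on simulated counts with known changes, and the permutation test on made values with a known p. Normalized counts are counts per TMM-scaled library, and log2 CPM used a prior count of 2. TPM was computed from the counts and annotated exon lengths. Intervals are 95% confidence intervals of the edgeR fit.

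The members and lists were chosen with earlier results of these data known. Named genes were all members, the other CTLH subunits, the 3 E2 enzymes with the largest rise and the 3 with the largest fall among those called in WT, and for *Maea*, *Wdr26*, *Ube2h* and *Ube2o* the 3 genes most like each. Other listed genes are named after their values were seen.

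The S1 and S3 libraries of an embryo come from the same animal, which pairs them. Their deviations from the group means correlated over 13402 genes with r from 0.07 to 0.33 in the 4 WT embryos, 0.05 in Het and 0.42 in KO. The stage fits left this pairing out, and a fit with it was an alternative. Library totals of 20666044 to 37609502 counts set the depth. Each embryo is a separate animal, so p-values measure the spread between embryos. Promoter sequences were taken from a RefSeq table of GRCm38.p6 and placed by exact match in GRCm39. Protein sequences were not used here. Some listed genes are not reported here.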

Additional observations from a re-analysis of the deposited data

Results flagged for a closer look

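Of the 32 groups of 4 WT libraries examined (the normalized counts of the 10 members and the 6 within-library measures at each stage), 2 held a library that stood apart from the other 3, with a gap over the whole range above Dixon's 95% critical value for 4 samples. *Maea* in the S1 library of WT embryo 1 was at 2419 normalized counts, where the others were at 2761 to 2831 (gap over range 0.831). *Wdr26* in the S1 library of WT embryo 5 was at 652 normalized counts, where the others were at 1019 to 1081 (0.855). Chance alone gives such a library in about 1 in 20 groups, and no explanation of either was tested.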

How the results depend on the processing

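The 6 members called higher at S3 stayed 6 in every alternative run in Het, were 6 or 7 in WT (7 in DESeq2, with *Armc8*, and without WT embryo 8, with *Ranbp9*) and 6 in KO, except 5 with total-count scaling. Members called lower came to 4 in WT, 4 in KO and 4 in Het with total-count scaling, in place of 0, 0 and 1. In Het that count was 0 in DESeq2, with all 16 libraries, with filterByExpr, with the newer quasi-likelihood method and without either Het embryo, and 2 with no filter and with upper-quartile scaling. Total-count scaling turned *Ranbp9* to -0.75 in WT, -0.71 in KO and -0.85 in Het, and *Armc8* to -0.79, -0.76 and -0.90 (log2 fold changes). Upper-quartile scaling turned *Ranbp9* to -0.0083 in KO and -0.024 in Het, and *Armc8* to -0.066 in KO and -0.072 in Het, where no filter gave -0.039. Leaving out 1 embryo gave -0.40 to 0.037 for *Gid4* in WT and -0.26 to 0.051 for *Maea* in KO, the KO and Het fits then resting on a lone sample assumed to vary like the other groups.

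Between genotypes members called lower rose from 0 to 1 in KO at S3, 1 in Het at S1 and 5 in Het at S3 with sex as a covariate, and stayed at 0 in the others run. Without WT embryos 0 and 8 signs turned in KO at S1 for *Ube2h* (0.33), *Ranbp10* (0.25) and *Wdr26* (0.039), in KO at S3 for *Ube2o* (0.14) and *Ranbp10* (0.10), in Het at S1 for *Ube2h* (0.081) and *Gid8* (0.0024) and in Het at S3 for *Ube2h* (0.029), *Ube2o* (0.14) and *Ranbp10* (0.065). *Gid4* in the WT stage comparison was then 0.0046. Leaving out 1 embryo gave -0.68 to 0.059 for *Ube2h*, -0.51 to 0.084 for *Wdr26* and -1.03 to 0.083 for *Rmnd5a* in KO at S1. The 66 genes called in KO at S3 were 259 in DESeq2, 356 with no filter, 547 with sex, 104 with all 16 libraries, 43 with upper-quartile scaling, 11 to 42 without 1 embryo and 5 without WT embryos 0 and 8. The 0 called in Het at S3 were 57 with no filter, 2124 with sex and 8 without those embryos, the 0 in Het at S1 were 397 with sex and 5 without them, and the 1 in KO at S1 was 21 with sex and 7 with no filter. Calls in KO across stages were 5368 and 5486 without 1 embryo and in Het 5552 and 5757, in place of 7131 and 9936. The causes were not tested.

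With the embryo as a replicate block no call on a member changed in edgeR (*Ube2h* 5.25 and *Ube2o* 5.10 in WT). For the ratios, pairing by embryo, leaving out 1 embryo and leaving out embryos 0 and 8 each allow no exact p under the threshold, so that a loss of the call there says nothing of their stability. The paired differences were 4.34 for *Ranbp10*/*Ranbp9*, 2.88 for *Rmnd5a*/*Rmnd5b*, -2.18 for *Maea*/*Rmnd5a*, 2.17 for *Wdr26*/*Mkln1* and 2.89 points for the E2 share. Without embryos 0 and 8 they were 4.42, 2.50, -1.98, 2.10 and 2.18, and without 1 embryo 4.21 to 4.42, 2.71 to 3.13, -2.38 to -2.02, 2.08 to 2.24 and 2.62 to 3.14. Leaving out embryos 0 and 8 together, total-count scaling and the fits with a lone sample were chosen after seeing the data. The genotype differences rest on 2 KO and 2 Het embryos, and the lowest count of a member in a library was 161.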
